A study of Mus musculus with 20 samples.

Results

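Ky, Vill, C1qtnf6, Chpf, Ptgis, Mdfi, Sh3kbp1 and Smim36, which lie outside the duplicated stretch of chromosome 16, were followed through embryonic hearts of 3 genotypes, as 8 of the 48795 genes in the expression table and 8 of the 15209 2-copy genes tested. They were chosen from the readout, as 2-copy genes outside the cell cycle whose level moved most in Dp1Tyb hearts compared to WT hearts or compared to hearts labelled Dp1TybDyrk1a+/+/-. Their differences in those 2 comparisons are therefore given as a description, with no test. The data are mRNA sequencing of the whole heart of 20 mouse embryos at E13.5, which the authors deposited as log2-transformed normalized counts, called log2 values here. The comparisons address which expression differences of Dp1Tyb hearts are present when Dyrk1a is brought back from 3 functional copies to 2.

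The WT group held 10 hearts. The Dp1Tyb group held 5 hearts of embryos with a tandem duplication of chromosome 16 from Lipi to Zbtb21, which gives 3 copies of Dyrk1a and of the genes around it. The third group held 5 hearts labelled Dp1TybDyrk1a+/+/-, which carry the same duplication with 1 of the 3 Dyrk1a copies inactivated by the Dyrk1a tm1Mla allele. The duplication and the null allele are present in every cell of the embryo, and the hearts are whole hearts, so the values average over all cell types. Each mutant group was collected with WT littermates, but the labels give no litters, and the 10 WT hearts were therefore used together. The paper states that Dp1TybDyrk1a+/+/- mice were kept as a strain of their own. Between the mutant groups, Dyrk1a dose thus cannot be told apart from other differences between the strains. Nothing in the labels says more than that each heart is a separate sample. An SD given with a mean is the spread between hearts of 1 genotype. An SE given with a difference is that of the limma fit described below, from a spread pooled over the 3 genotypes.

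Dyrk1a encodes a protein kinase whose dose is known to matter in development. It phosphorylates NFAT transcription factors, which leave the nucleus as a result, and the LIN52 subunit of the DREAM complex, which represses cell cycle genes. The genes described here are not established targets of the kinase, and they have no pathway in common. Ky encodes a transglutaminase-like protein of the muscle Z-disc, and Vill encodes a relative of the actin-severing proteins villin and gelsolin. C1qtnf6 encodes a secreted paralog of adiponectin, Chpf a chondroitin polymerizing factor that works with chondroitin synthases, and Ptgis the prostacyclin synthase. Mdfi encodes an inhibitor of MyoD family transcription factors, Sh3kbp1 an adapter that links the Cbl ubiquitin ligases to receptor endocytosis, and Smim36 a small integral membrane protein.

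None of the 8 genes lies in the duplicated stretch. RefSeq on GRCm38.p6 places 7 of them. Ky (ENSMUSG00000035606) lies at chr9:102505755-102546247 and Vill (ENSMUSG00000038775) at chr9:119052729-119071525, both on the plus strand. C1qtnf6 (ENSMUSG00000022440) lies at chr15:78523346-78532170, Chpf (ENSMUSG00000032997) at chr1:75474569-75479471, Ptgis (ENSMUSG00000017969) at chr2:167203194-167252150 and Mdfi (ENSMUSG00000032717) at chr17:47815328-47834691, all on the minus strand. Sh3kbp1 (ENSMUSG00000040990) lies at chrX:159626892-159975920 on the plus strand. Smim36 (ENSMUSG00000110344) lies on chromosome 11.

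RefSeq promoter windows of 300 bases, 250 before and 50 from the start site, matched 6 of the 8 genes and gave 10 windows. Ptgis and Smim36 had none. The first windows of 4 genes, among 2 of Mdfi and 4 of Sh3kbp1, are printed, and every window with a match marked in capitals is among them. Ky was the lowest in Dp1Tyb hearts relative to WT, and Sh3kbp1 was also lower in Dp1Tyb hearts. Chpf and Mdfi were higher there but overlapped with WT. Vill and C1qtnf6 were higher without overlap, but their windows held no marked match and are not printed. The letters run 5′ to 3′ on the strand of the gene, and capitals mark matches to TTTGAA, the core of the cell cycle homology region through which DREAM acts, and to TGACGTCA, the palindromic cyclic AMP response element.
Ky, chr9:102505888-102506187, plus strand: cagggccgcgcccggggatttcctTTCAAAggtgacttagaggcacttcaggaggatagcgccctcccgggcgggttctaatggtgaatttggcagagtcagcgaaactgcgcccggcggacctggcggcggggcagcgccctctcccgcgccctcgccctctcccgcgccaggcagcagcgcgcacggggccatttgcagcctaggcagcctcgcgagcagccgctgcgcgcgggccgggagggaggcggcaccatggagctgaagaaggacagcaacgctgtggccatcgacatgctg
Sh3kbp1, chrX:159627022-159627321, plus strand: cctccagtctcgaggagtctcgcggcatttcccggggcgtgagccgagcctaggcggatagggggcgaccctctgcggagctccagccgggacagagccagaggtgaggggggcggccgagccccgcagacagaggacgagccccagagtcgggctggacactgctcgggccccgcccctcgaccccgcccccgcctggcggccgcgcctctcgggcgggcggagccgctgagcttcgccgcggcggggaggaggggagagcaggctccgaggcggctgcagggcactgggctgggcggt
Chpf, chr1:75479422-75479721, minus strand: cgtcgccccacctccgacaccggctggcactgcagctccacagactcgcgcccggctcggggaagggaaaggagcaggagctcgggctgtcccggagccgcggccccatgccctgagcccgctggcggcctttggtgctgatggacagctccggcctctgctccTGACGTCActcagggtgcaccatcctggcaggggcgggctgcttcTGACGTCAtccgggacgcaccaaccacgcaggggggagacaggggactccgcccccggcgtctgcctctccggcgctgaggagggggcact
Mdfi, chr17:47834642-47834941, minus strand: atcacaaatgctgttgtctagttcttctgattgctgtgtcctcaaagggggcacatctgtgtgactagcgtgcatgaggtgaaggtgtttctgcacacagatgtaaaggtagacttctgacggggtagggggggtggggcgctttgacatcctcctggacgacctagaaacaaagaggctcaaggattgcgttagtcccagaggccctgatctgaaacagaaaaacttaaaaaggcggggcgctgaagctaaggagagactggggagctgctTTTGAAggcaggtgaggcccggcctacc
TTTGAA, searched on both strands, was found once in the Ky window, at -226 from the start site of that window, and once in the Mdfi window, at 22. The windows of Ky, C1qtnf6 and Sh3kbp1 have start sites inside the gene as placed above, and the Ky match lies inside the gene too. TTTGAA was in none of the other 8 windows, and 17.9% of all 32851 promoter windows hold it. TGACGTCA was not on the list of motifs searched at first and was added once the Chpf window had been read. It occurred 2 times in the Chpf window, at -86 and -41, in no other window of these genes, and in 1.79% of all windows. The E2F site forms TTTCCCGC, TTTCGCGC, TTTGCCGC and TTTGGCGC were in none of the 10 windows and in 2.26% of all windows. GGAAA, the core of the NFAT site, was in windows of Ky, C1qtnf6, Chpf, Mdfi and Sh3kbp1 and in 61.3% of all windows. The E-box CANNTG was in windows of Ky, C1qtnf6, Mdfi and Sh3kbp1 and in 72.3%, and TATAAA was in 1 window of Sh3kbp1 and in 13.6%. The letters of TTTGAA can overlap none of the E2F forms in full, and GGAAA can share bases with them.

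Dyrk1a RNA itself had log2 values of 11.28 to 11.43 in the WT hearts (median 11.36), 11.65 to 11.75 in the Dp1Tyb hearts (median 11.67) and 11.70 to 11.85 in the hearts labelled Dp1TybDyrk1a+/+/- (median 11.75). The hearts with the null allele were thus not lower than the Dp1Tyb hearts: their mean was 0.39 above WT, compared to 0.32 for Dp1Tyb. A gene-level value includes reads from the exons that a partial deletion leaves, so the RNA level neither checks nor contradicts the label of the third group. What is called Dyrk1a dose here is the dose given in the label.

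All 8 genes passed the filter on low values (mean normalized count 10 or more), as did 15304 genes in all, and these were fitted by limma with a mean for each genotype. A gene counts as called where its p adjusted by Benjamini-Hochberg over all tested genes is under 0.05. Depth is unknown because the table of log2 values holds no read totals. Hearts were sequenced in lanes 3, 6 and 7, and every genotype was present in every lane. By the level of the chromosome Y genes Ddx3y, Eif2s3y, Kdm5d and Uty, 3 WT, 4 Dp1Tyb and 1 Dp1TybDyrk1a+/+/- hearts were called female, so sex was unbalanced between the genotypes, and so was lane, with 1 Dp1Tyb and 3 Dp1TybDyrk1a+/+/- hearts in lane 7. WT replicate 6 and Dp1TybDyrk1a+/+/- replicate 2 stood apart from the hearts of their genotype, with root mean square distances over all tested genes of 0.149 and 0.233 compared to 0.0586 to 0.105 for the others. Over all 2-copy genes, 399 were called in Dp1Tyb versus WT (205 higher, 194 lower), 40 in Dp1TybDyrk1a+/+/- versus WT (27 higher, 13 lower) and 176 in Dp1Tyb versus Dp1TybDyrk1a+/+/- (63 higher, 113 lower). With lane and sex as covariates these counts were 105, 25 and 3, and with sex alone the last was 9. They ran from 196 to 884, 22 to 89 and 29 to 400 with 1 heart left out, the lowest without Dp1Tyb replicate 3, Dp1TybDyrk1a+/+/- replicate 3 and Dp1Tyb replicate 3, and the highest without Dp1TybDyrk1a+/+/- replicate 2, WT replicate 6 and WT replicate 6. With each heart centred on its median the last 2 splits were 32 higher and 9 lower, and 47 higher and 177 lower.

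Ky, the Z-disc protein, had the largest log2 difference of the 8 genes in both comparisons. Its log2 values ran from 6.94 to 7.28 in WT hearts, with a median of 7.02. In the Dp1Tyb hearts they were 6.65, 6.75, 6.68, 6.69 and 6.68, and in the hearts labelled Dp1TybDyrk1a+/+/- they were 6.90, 7.08, 6.95, 7.04 and 6.98. Every Dp1Tyb heart thus lay below all 15 other hearts, and only 1 Dp1TybDyrk1a+/+/- heart, replicate 1, lay below the WT range. The mean was 6.69 ± 0.0389 (SD, n = 5) in Dp1Tyb, 7.06 ± 0.112 (SD, n = 10) in WT and 6.99 ± 0.0721 (SD, n = 5) in Dp1TybDyrk1a+/+/- hearts. Dp1Tyb differed by -0.37 ± 0.047 (SE, log2) from WT, or 0.776 times the WT level, and -0.30 ± 0.054 (SE) from Dp1TybDyrk1a+/+/-. Ky ranked 15 by absolute difference among the 15209 2-copy genes in Dp1Tyb versus WT and 75 in Dp1Tyb versus Dp1TybDyrk1a+/+/-.

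Vill, the villin relative, moved the other way. WT hearts ran from 7.73 to 8.05 with a median of 7.93, the Dp1Tyb hearts had 8.12, 8.18, 8.11, 8.13 and 8.08, and the Dp1TybDyrk1a+/+/- hearts had 7.96, 7.83, 7.86, 7.82 and 7.82. All 5 Dp1Tyb hearts were above every other heart, and all 5 Dp1TybDyrk1a+/+/- hearts lay within the WT range. The log2 difference of Dp1Tyb was 0.20 ± 0.041 (SE) from WT and 0.26 ± 0.047 (SE) from Dp1TybDyrk1a+/+/-. Transcripts of Vill share up to 374 bases with those of Plcd1, a phospholipase C gene on the opposite strand. The strand setting of the counting is not given in the sources used here, so reads from these bases cannot be assigned to Vill with certainty. Plcd1 was not called in any comparison, with log2 differences of 0.07 in Dp1Tyb versus WT and 0.11 in Dp1Tyb versus Dp1TybDyrk1a+/+/-.

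C1qtnf6, the adiponectin paralog, is 1 of 3 genes with products in secretion, matrix or lipid signalling. WT hearts ran from 9.67 to 9.81 with a median of 9.71, the Dp1Tyb hearts had 9.88, 9.94, 9.89, 9.94 and 9.83, and the Dp1TybDyrk1a+/+/- hearts had 9.77, 9.62, 9.63, 9.72 and 9.66. The Dp1Tyb hearts did not overlap with either group, while 3 Dp1TybDyrk1a+/+/- hearts fell below the WT range. Dp1Tyb differed on the log2 scale by 0.17 ± 0.028 (SE) from WT and 0.21 ± 0.032 (SE) from Dp1TybDyrk1a+/+/-.

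Chpf, the chondroitin polymerizing factor, had the largest log2 difference in the upward direction in Dp1Tyb versus Dp1TybDyrk1a+/+/- hearts among called and non-overlapping 2-copy genes, and a smaller one from WT. WT hearts ran from 9.19 to 9.42 with a median of 9.35, the Dp1Tyb hearts had 9.44, 9.49, 9.44, 9.39 and 9.42, and the Dp1TybDyrk1a+/+/- hearts had 9.29, 9.02, 9.20, 9.17 and 9.15. Only 3 Dp1Tyb hearts were above the WT range, and 3 Dp1TybDyrk1a+/+/- hearts were below it, so the Dp1TybDyrk1a+/+/- mean of 9.16 ± 0.0979 (SD, n = 5) lay beyond WT and not at it. The log2 difference of Dp1Tyb was 0.11 ± 0.040 (SE) from WT and 0.27 ± 0.046 (SE) from Dp1TybDyrk1a+/+/-.

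Ptgis, the prostacyclin synthase, ran from 8.75 to 8.92 in WT hearts with a median of 8.87. The Dp1Tyb hearts had 8.99, 9.11, 8.95, 8.99 and 9.08, and the Dp1TybDyrk1a+/+/- hearts had 8.93, 8.56, 8.88, 8.84 and 8.85. All Dp1Tyb hearts were above all other hearts, but by 0.02 at the closest point, and replicate 2 of Dp1TybDyrk1a+/+/- was far below the others of its group. The log2 difference was 0.16 ± 0.045 (SE) from WT and 0.21 ± 0.052 (SE) from Dp1TybDyrk1a+/+/-. Without WT replicate 6 and Dp1TybDyrk1a+/+/- replicate 2 these were 0.15 and 0.15.

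Mdfi, the MyoD family inhibitor, had log2 values of 8.71 to 8.96 in WT hearts with a median of 8.91. The Dp1Tyb hearts had 8.93, 9.08, 9.02, 8.98 and 8.94, and the Dp1TybDyrk1a+/+/- hearts had 8.87, 8.59, 8.81, 8.83 and 8.82. The Dp1Tyb hearts overlapped with WT, with 3 of 5 above the WT range, and were all above the Dp1TybDyrk1a+/+/- hearts. The log2 difference was 0.10 ± 0.044 (SE) from WT and 0.21 ± 0.050 (SE) from Dp1TybDyrk1a+/+/-, and without the 2 hearts that stood apart it was 0.08 and 0.16.

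Sh3kbp1, the endocytic adapter, was lower in Dp1Tyb hearts. WT hearts ran from 10.84 to 11.21 with a median of 10.93, the Dp1Tyb hearts had 10.74, 10.75, 10.72, 10.72 and 10.69, and the Dp1TybDyrk1a+/+/- hearts had 10.86, 11.24, 10.86, 10.85 and 10.97. No Dp1Tyb heart overlapped with the other groups. The highest values of both other groups were those of WT replicate 6 and Dp1TybDyrk1a+/+/- replicate 2, the same hearts that were lowest for Chpf, Ptgis and Mdfi. The log2 difference was -0.22 ± 0.057 (SE) from WT and -0.23 ± 0.066 (SE) from Dp1TybDyrk1a+/+/-, and -0.20 and -0.16 without those 2 hearts.

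Smim36, the small membrane protein, differed from the others in that its Dp1TybDyrk1a+/+/- hearts were spread between both other groups. WT hearts ran from 8.23 to 8.40 with a median of 8.35, the Dp1Tyb hearts had 8.04, 8.20, 8.03, 8.11 and 8.07, and the Dp1TybDyrk1a+/+/- hearts had 8.17, 8.07, 8.36, 8.32 and 8.26. The Dp1Tyb hearts were all below WT, but 2 Dp1TybDyrk1a+/+/- hearts lay within the Dp1Tyb range. On the log2 scale Dp1Tyb differed by -0.25 ± 0.040 (SE) from WT and -0.14 ± 0.047 (SE) from Dp1TybDyrk1a+/+/-. The level of Smim36 is uncertain, because its transcripts share 883 bases at 100% identity with transcripts of Mmd, a much more abundant gene on the same strand with a mean log2 value of 11.63. Mmd was not called in any comparison, with log2 differences of 0.02 in Dp1Tyb versus WT, 0.12 in Dp1TybDyrk1a+/+/- versus WT and -0.09 in Dp1Tyb versus Dp1TybDyrk1a+/+/-, the last in the direction of Smim36.

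**Figure D1:**
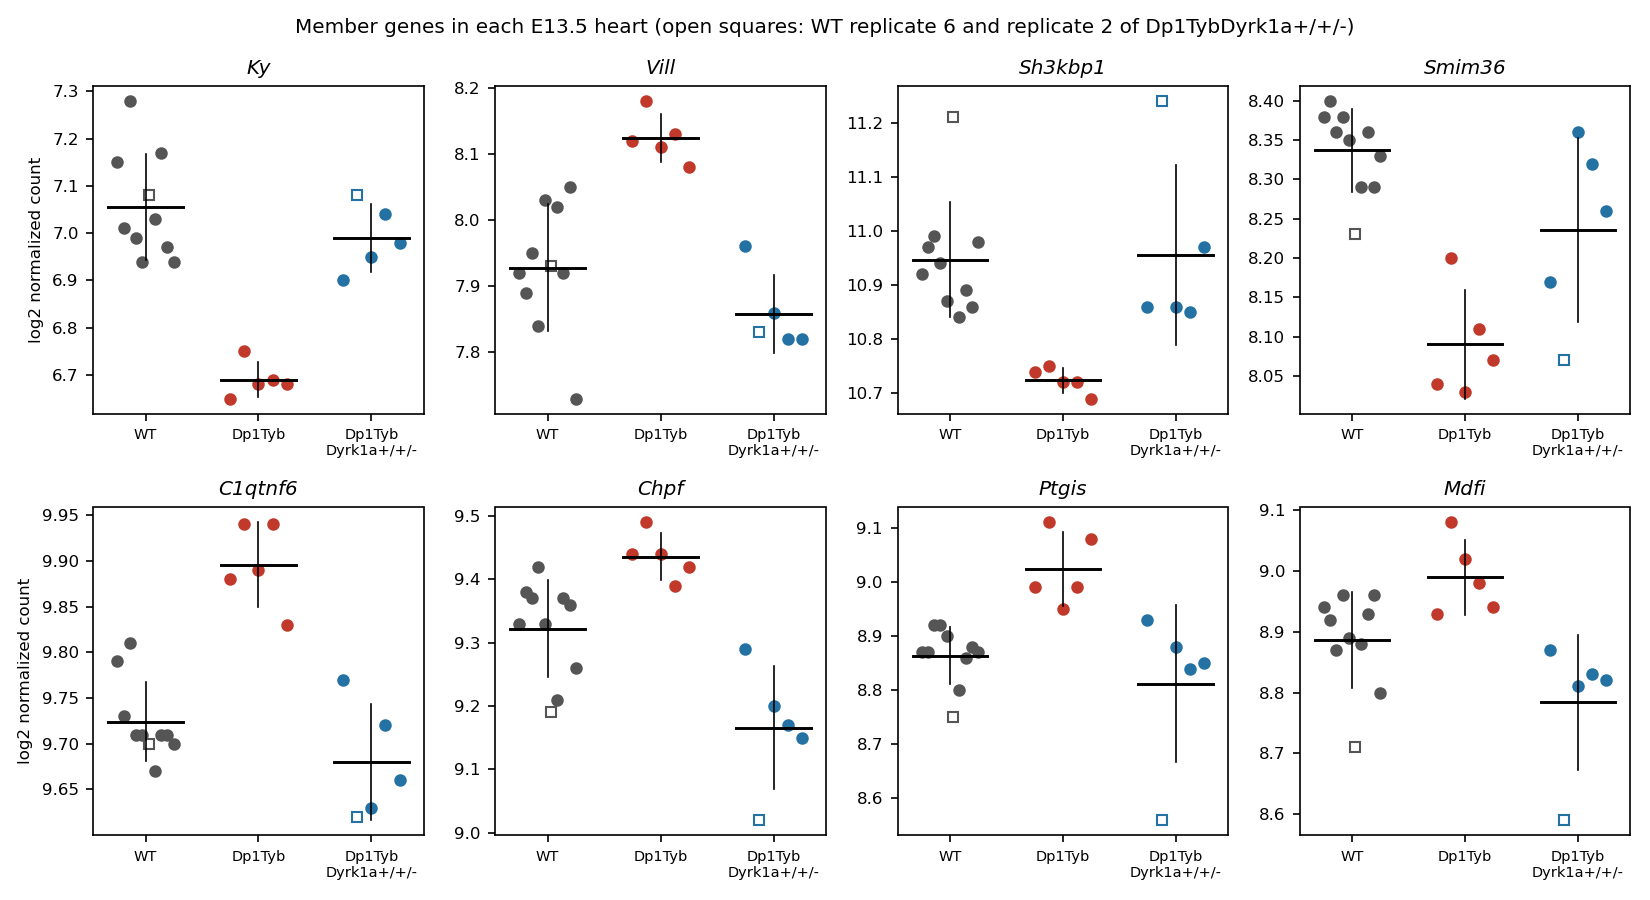
Log2 normalized counts of the 8 genes (y axes) in each heart, by genotype (x axes), with the mean as a horizontal line and the SD as a vertical line; open squares mark WT replicate 6 and replicate 2 of Dp1TybDyrk1a+/+/-. The 5 Dp1Tyb hearts sit below all others for Ky and Sh3kbp1 and above all others for Vill, C1qtnf6 and Ptgis, while the open squares are the highest hearts of their groups for Sh3kbp1 and the lowest for Chpf, Ptgis and Mdfi.

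Set side by side, 5 of the 8 genes were higher and 3 lower in Dp1Tyb hearts, with the same direction in both comparisons. In Dp1Tyb versus WT, 5 of 8 were called, where 3.08% of all tested genes were called, and 6 of 8 did not overlap, where 2.63% of all tested genes did not. In Dp1Tyb versus Dp1TybDyrk1a+/+/-, 6 of 8 were called and 7 of 8 did not overlap, where 1.16% and 5.65% of all tested genes did so. The genes were chosen for these differences, so nothing is read from these counts. The sizes were modest, from 1.08-fold for Chpf and Mdfi in Dp1Tyb versus WT to 1.29-fold for Ky in the downward direction.

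The choice was not a clean cut. Among called and non-overlapping 2-copy genes that were lower in Dp1Tyb than in WT, Sh3kbp1 ranked 5 at -0.22, and the next were Rbm3 at -0.22 and Fndc3c1 at -0.22. Among those higher in Dp1Tyb than in Dp1TybDyrk1a+/+/-, Mdfi ranked 5 at 0.21, followed by Pgbd5 at 0.21. Genes ranked above or between the 8 were also left out, such as Vwf at 0.47 and Ddc at -0.29 in Dp1Tyb versus WT, which are named here after their values were seen. In the order of genes higher in Dp1Tyb than in Dp1TybDyrk1a+/+/-, however, Chpf, Vill, C1qtnf6, Ptgis and Mdfi held ranks 1 to 5. In the other orders the genes described here are a selection and not the top. Among genes higher in Dp1Tyb than in WT, Slc16a12 at rank 14 still had 0.22, above Vill at 0.20, the largest of the 8. By absolute difference among the 15209 2-copy genes, Chpf ranked 701 and Mdfi 944 in Dp1Tyb versus WT. Smim36 ranked 775 in Dp1Tyb versus Dp1TybDyrk1a+/+/-. The genes next after Sh3kbp1 and Mdfi had differences of about the same size as theirs.

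The comparison of Dp1TybDyrk1a+/+/- with WT was not used in the choice, although it shares its hearts with both comparisons that were, and supports nothing on its own. Of the 8 genes, 0 were called by limma, where 0.712% of all tested genes were called, and 0 were without overlap, where 0.64% of all tested genes were. At an unadjusted p under 0.05 the same fit gave 3 of the 8 genes, Chpf, Mdfi and Smim36, and 1475 genes in all. The log2 differences from WT were -0.06 for Ky (95% interval -0.16 to 0.03, limma adjusted p = 0.678), -0.07 for Vill (-0.15 to 0.02, adjusted p = 0.611) and -0.04 for C1qtnf6 (-0.10 to 0.02, adjusted p = 0.64). Ptgis stood at -0.05 (-0.15 to 0.04, adjusted p = 0.731) and Sh3kbp1 at 0.01 (-0.11 to 0.13, adjusted p = 0.966).

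The other 3 genes were further from WT in the hearts labelled Dp1TybDyrk1a+/+/-. The log2 difference was -0.16 for Chpf (95% interval -0.24 to -0.08, limma adjusted p = 0.0776), -0.10 for Mdfi (-0.19 to -0.01, adjusted p = 0.459) and -0.10 for Smim36 (-0.18 to -0.02, adjusted p = 0.408). Their unadjusted intervals do not include 0, but none passed the threshold over all tested genes. Chpf passed it without the 2 hearts that stood apart, at a log2 difference of -0.14 and an adjusted p of 0.0413, and without WT replicate 6 alone (adjusted p = 0.021), WT replicate 7 alone (0.0457) or Dp1TybDyrk1a+/+/- replicate 1 alone (0.0246). With the GC score described below as a covariate it was -0.08 for Chpf (adjusted p = 0.383, and 0.408 without the 2 hearts as well) and -0.01 for Mdfi (adjusted p = 0.913). For Chpf and Mdfi the difference was opposite in sign to that of Dp1Tyb from WT, and for Smim36 it had the same sign.

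**Figure D2:**
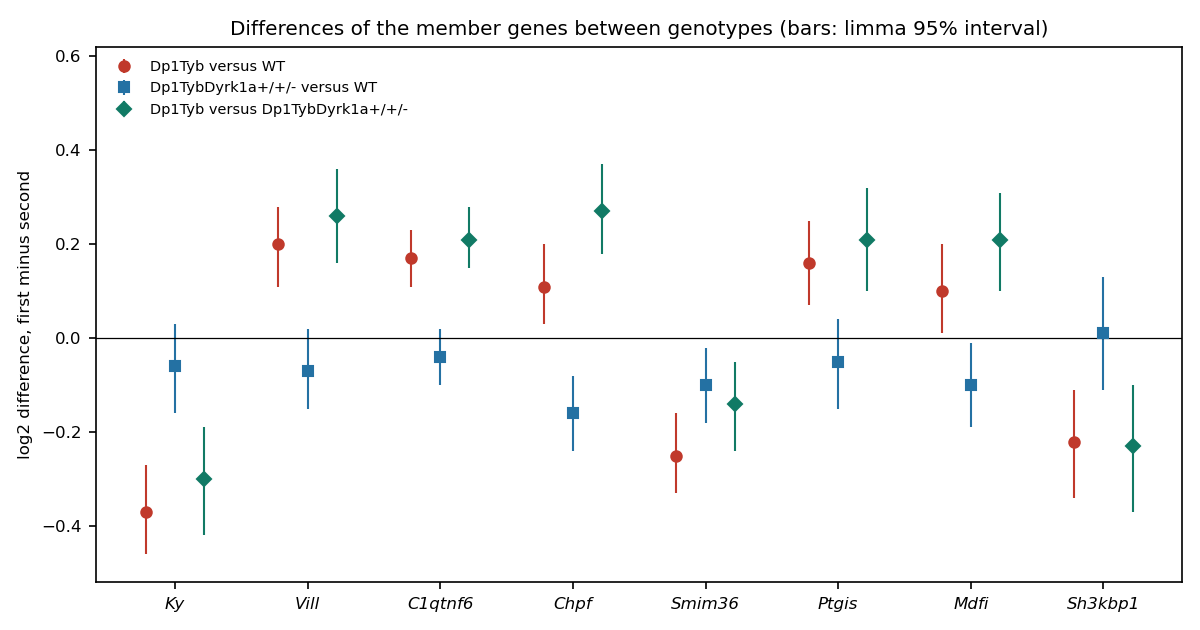
Log2 difference of the first genotype minus the second (y axis) for each gene (x axis) in the 3 comparisons, with the 95% interval of the limma fit as bars. The squares of Dp1TybDyrk1a+/+/- versus WT lie nearest to 0 except for Chpf, where -0.16 is farther from 0 than 0.11 in Dp1Tyb versus WT, and Mdfi, where -0.10 and 0.10 are of equal size.

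Values within each lane and within each called sex are given as a description, since the choice of the genes fixes the sign wherever the hearts do not overlap, and some of these sets held 1 heart of a genotype. For Ky, Dp1Tyb versus WT ran from -0.43 to -0.28 over the lanes and from -0.39 to -0.31 over the sexes. Sh3kbp1, which lies on the X chromosome, ran from -0.28 to -0.18 over the lanes in Dp1Tyb versus WT, and Smim36 from -0.21 to -0.04 in Dp1Tyb versus Dp1TybDyrk1a+/+/-. In a limma fit with genotype, lane and sex as terms, none of the 8 genes was called for sex, where 0.0719% of all tested genes were called, or for lane, where no gene was. At an unadjusted p under 0.05 these terms gave 0 of the 8 genes, and 776 genes in all for sex. The largest sex term was that of Smim36, 0.09 ± 0.058 (SE) higher in male hearts (adjusted p = 0.988), next to -0.09 ± 0.053 (SE) for Vill (adjusted p = 0.987).

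Base composition differed between the hearts, and in part along with genotype. For each heart a GC score was computed as the median log2 deviation from the WT mean of the 20% of tested genes with the highest GC content in their longest transcript minus that of the 20% with the lowest. The score was 0.028 to 0.050 in Dp1Tyb hearts, -0.049 to 0.031 in WT hearts and -0.104 to 0.007 in Dp1TybDyrk1a+/+/- hearts, so every Dp1Tyb heart was above every Dp1TybDyrk1a+/+/- heart. The lowest scores were those of the 2 hearts that stood apart. The 5 genes that were higher in Dp1Tyb hearts have GC-rich transcripts, at the 86.9 (Vill), 89.1 (C1qtnf6), 89.7 (Ptgis), 92.9 (Chpf) and 99.2 (Mdfi) percentile of tested genes. Of the 3 genes that were lower, Sh3kbp1 is GC-poor at the 27.1 percentile, while Ky and Smim36 stand at the 79.2 and 75 percentile.

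With the GC score as a covariate in the limma fit, the genes fell into separate kinds of behaviour. In Dp1Tyb versus Dp1TybDyrk1a+/+/-, Ky had a log2 difference of -0.27 and Vill of 0.23, while Smim36 went from -0.14 to -0.26. C1qtnf6 went from 0.21 to 0.14 and Chpf from 0.27 to 0.10. Ptgis went to 0.03 ± 0.054 (SE), Mdfi to 0.02 ± 0.047 (SE) and Sh3kbp1 to 0.01 ± 0.063 (SE). The value of Sh3kbp1 is opposite in sign to its -0.23 without the score. With the score in the fit and the 2 hearts that stood apart left out, the differences were -0.34 for Ky, 0.20 for Vill, -0.17 for Smim36, 0.12 for C1qtnf6, 0.12 for Chpf, 0.11 for Ptgis, 0.08 for Mdfi and -0.13 for Sh3kbp1. With the score in the fit, the differences of Ptgis, Mdfi, Sh3kbp1 and Smim36 thus changed with those 2 hearts, and those of Ky and Vill were of about the same size under each of these settings. Their SE grew, however, from 0.054 without the score to 0.08 and 0.096 for Ky, and from 0.047 to 0.069 and 0.086 for Vill. With the score and without the 2 hearts, 0 2-copy genes were called in this comparison.

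**Figure D3:**
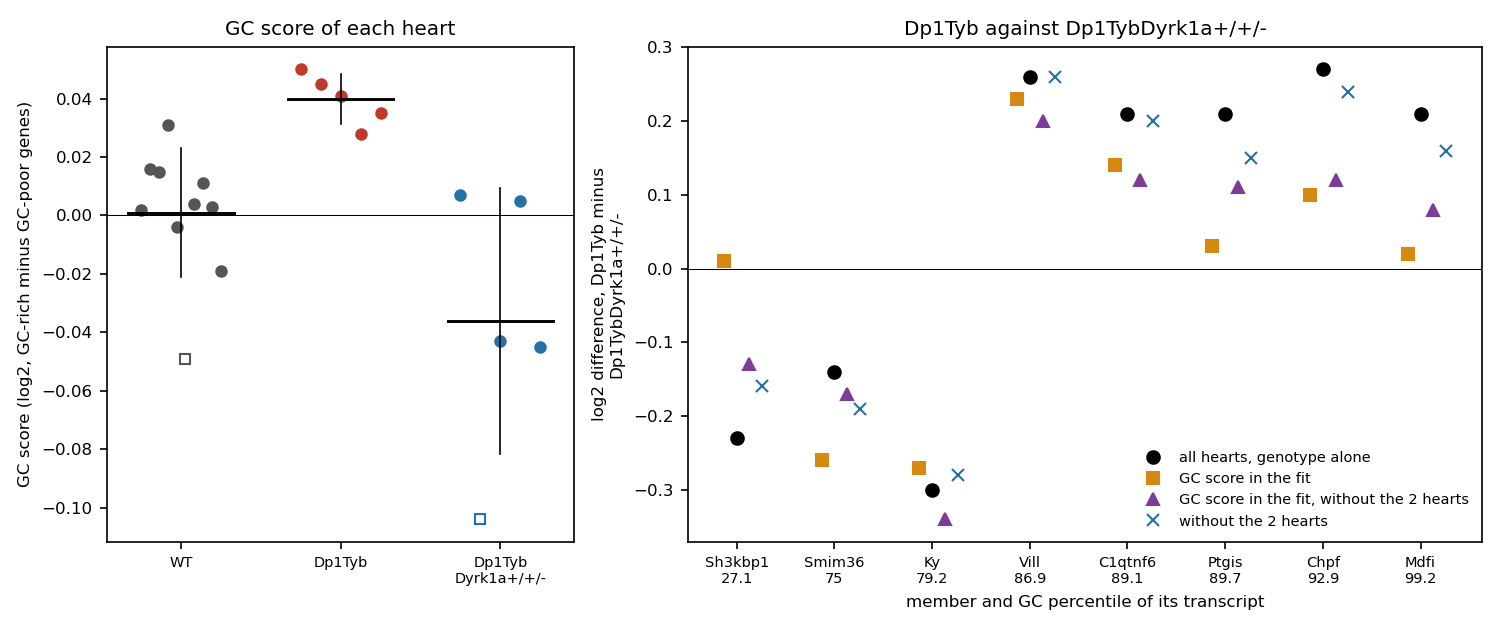
Left, GC score of each heart (y axis, log2) by genotype, with mean and SD and the 2 hearts that stood apart as open squares. Right, log2 difference of Dp1Tyb minus Dp1TybDyrk1a+/+/- (y axis) for the 8 genes in order of the GC percentile of their transcript (x axis) under 4 fits; Ky and Vill stay near -0.3 and 0.2, while the squares of Sh3kbp1, Ptgis and Mdfi lie close to 0.

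In Dp1Tyb versus WT the same covariate left -0.35 for Ky, 0.18 for Vill, -0.30 for Smim36 and 0.13 for C1qtnf6, compared to 0.07 for Ptgis, -0.10 for Sh3kbp1, 0.03 for Chpf and 0.01 for Mdfi. Since the score differs between the genotypes, a difference in GC-rich RNA that comes with genotype and one that comes with the handling of the libraries cannot be told apart here.

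Among the WT hearts alone, which were of 1 genotype but whose levels and spread entered the choice, the 28 pairs of the 8 genes had Pearson correlations of -0.82 to 0.87. One pair passed Benjamini-Hochberg adjustment over the 28 pairs, Chpf with Ptgis (r = 0.865, permutation p = 0.00159, adjusted 0.0445; Spearman rho = 0.624, permutation p = 0.0596, n = 10). Without the 2 hearts farthest from the median of Chpf, replicates 6 and 7, r was 0.462. Without replicate 6 alone it was 0.771 (permutation p = 0.018, adjusted 0.256). Leaving out the extreme hearts of 1 of the 2 genes narrows its range, so the lower r does not show that the relation rests on them. The most negative pair, Mdfi with Sh3kbp1, had r = -0.822 (permutation p = 0.0131, adjusted 0.0735), rho = -0.564 (permutation p = 0.0963) and r = -0.134 without replicates 6 and 10. By Spearman correlation 0 of the 28 pairs passed (5 at an unadjusted p under 0.05), and 0 passed without WT replicate 6 (3 unadjusted). With values centred within lane 5 pairs passed.

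Over all 20 hearts, the genes whose pattern was most like that of each of the 8 are given with Pearson correlations, which are descriptions over hearts that share genotype and base composition. Ky was most like Cdkn1b, the cyclin-dependent kinase inhibitor p27 (r = 0.89), Pnrc2 (0.844) and Ctcf (0.843). Vill was most like Scarf2 (0.886), Plppr2 (0.876) and Prss23 (0.854), and C1qtnf6 was most like Colgalt1 (0.886), a collagen galactosyltransferase, Pdia5 (0.885) and Orai3 (0.885). Ptgis was most like Adgra2 (0.932), P3h4 (0.918) and Arpc1b (0.918), and Smim36 was most like Ppp1cc (0.851), Stmn1 (0.85) and Heca (0.841). Chpf was most like Mdfi (0.904), Marveld1 (0.9) and Fbxl19 (0.896), and Mdfi was most like Fbxl19 (0.957), Tnk2 (0.935) and Klhl22 (0.924). Sh3kbp1 was most like Smc6 (0.942), Lclat1 (0.937) and Pnrc1 (0.921). Within genotypes the correlation of deviations was 0.937 for Mdfi with Fbxl19 and 0.918 for Sh3kbp1 with Smc6, but 0.519 for Ky with Cdkn1b and 0.223 for Ky with Pnrc2, so that the likeness of the latter pairs lay more in the difference between genotypes.

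Genes that work with the 8 in their known pathways were taken from lists. Of 149 distinct genes tested from 11 lists, 4 were called in Dp1Tyb versus WT (2.68%, where 3.08% of all tested genes were called), 2 in Dp1TybDyrk1a+/+/- versus WT (1.34%, where 0.712% were called) and 1 in Dp1Tyb versus Dp1TybDyrk1a+/+/- (0.671%, where 1.16% were called). The medians of the log2 differences were 0.011, -0.008 and 0.014, beside -0.002, -0.003 and 0.003 over all tested genes. At an unadjusted p under 0.05 the limma fit gave 21, 20 and 30 of the 149 genes (14.1%, 13.4% and 20.1%), beside 15.6%, 9.64% and 18.5% of all tested genes.

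Of the genes that build chondroitin and dermatan sulfate with Chpf, 1 of 23 tested was called in Dp1Tyb versus WT. This was Papss2, which makes the sulfate donor and rose by 0.19 ± 0.048 (SE, limma adjusted p = 0.0307), with 0.11 in Dp1TybDyrk1a+/+/- versus WT (adjusted p = 0.471). Leaving out any 1 of WT replicates 1, 3 and 5 or Dp1Tyb replicates 2, 3 and 5 ended its call, as did embryo sex as a covariate, alone or with lane, no filter on low values, and the GC score without the 2 hearts that stood apart. In Dp1Tyb versus Dp1TybDyrk1a+/+/- 20 of the 23 had a log2 difference above 0, with a median of 0.054 beside 0.003 over all tested genes, but 0 were called (26.1% at an unadjusted p under 0.05, beside 18.5% of all tested genes). Of 13 tested proteoglycan core and link proteins, Hapln3 was weakly expressed, with a mean log2 value of 4.42. Values of weak genes are drawn towards their mean, as described below. Hapln3 rose by 0.06 ± 0.014 (SE, adjusted p = 0.0156) compared to WT and by 0.07 ± 0.017 (SE, adjusted p = 0.0405) compared to Dp1TybDyrk1a+/+/-. The first of these calls was kept under 27 of 33 alternatives and was lost without Dp1Tyb replicate 3 or 5 and with sex or the GC score as a covariate, and the second was kept under 11 of 33 and was lost without WT replicate 1, 2, 5 or 8, or any 1 of replicates 2 to 5 of either other genotype. Among other settings, the second was also lost with lane, sex or the GC score as a covariate. None of 18 tested prostanoid genes beside Ptgis was called in any comparison, with values of -0.01, 0.00 and -0.01 for Ptges3. None of 10 C1q and TNF related genes was called, with 0.00, -0.05 and 0.04 for the adiponectin receptor Adipor1. In Dp1Tyb versus Dp1TybDyrk1a+/+/- 9 of these 10 had a log2 difference above 0, as C1qtnf6 did, with a median of 0.065 and 5 at an unadjusted p under 0.05 (50%, beside 18.5% of all tested genes).

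Of 14 tested partners of Ky and Z-disc maintenance genes, Nrap, a nebulin-related anchoring protein of the muscle attachment sites, fell by 0.22 ± 0.048 (SE, limma adjusted p = 0.0125) in Dp1Tyb compared to WT, and this call was lost without Dp1Tyb replicate 4 and with embryo sex or the GC score described above as a covariate. Its difference was -0.03 in Dp1TybDyrk1a+/+/- versus WT and -0.19 in Dp1Tyb versus Dp1TybDyrk1a+/+/- (adjusted p = 0.0887). In the latter comparison 1 of the 14 had a log2 difference above 0, with a median of -0.057. None of 3 tested transglutaminase genes was called, and Tgm2 had 0.00, -0.01 and 0.01 in the 3 comparisons. None of 5 tested villin and gelsolin genes was called, and Svil had -0.03, 0.06 and -0.09.

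Of the genes around Mdfi, 0 of 11 were called, with -0.13, 0.00 and -0.13 for the bHLH factor Tcf4. Of 22 tested partners of Sh3kbp1 in receptor endocytosis 0 were called, with -0.03, 0.00 and -0.03 for the clathrin heavy chain Cltc. Of 19 tested small integral membrane protein genes, Smim11, which lies in the duplicated stretch and has 3 copies, rose by 0.23 ± 0.043 (SE, limma adjusted p = 0.00338) in Dp1Tyb and by 0.31 ± 0.043 (SE, adjusted p = 0.000104) in Dp1TybDyrk1a+/+/- compared to WT. Smim8 rose by 0.13 ± 0.028 (SE, adjusted p = 0.0303) in Dp1TybDyrk1a+/+/- compared to WT, a call kept under 23 of 34 alternatives and lost without WT replicate 4, 7, 8, 9 or 10 or Dp1TybDyrk1a+/+/- replicate 1, 3, 4 or 5. The GC score as a covariate also ended the call of Smim8. Of the 11 NFAT and calcineurin genes 0 were called, with -0.08, 0.05 and -0.13 for Nfat5.

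**Figure D4:**
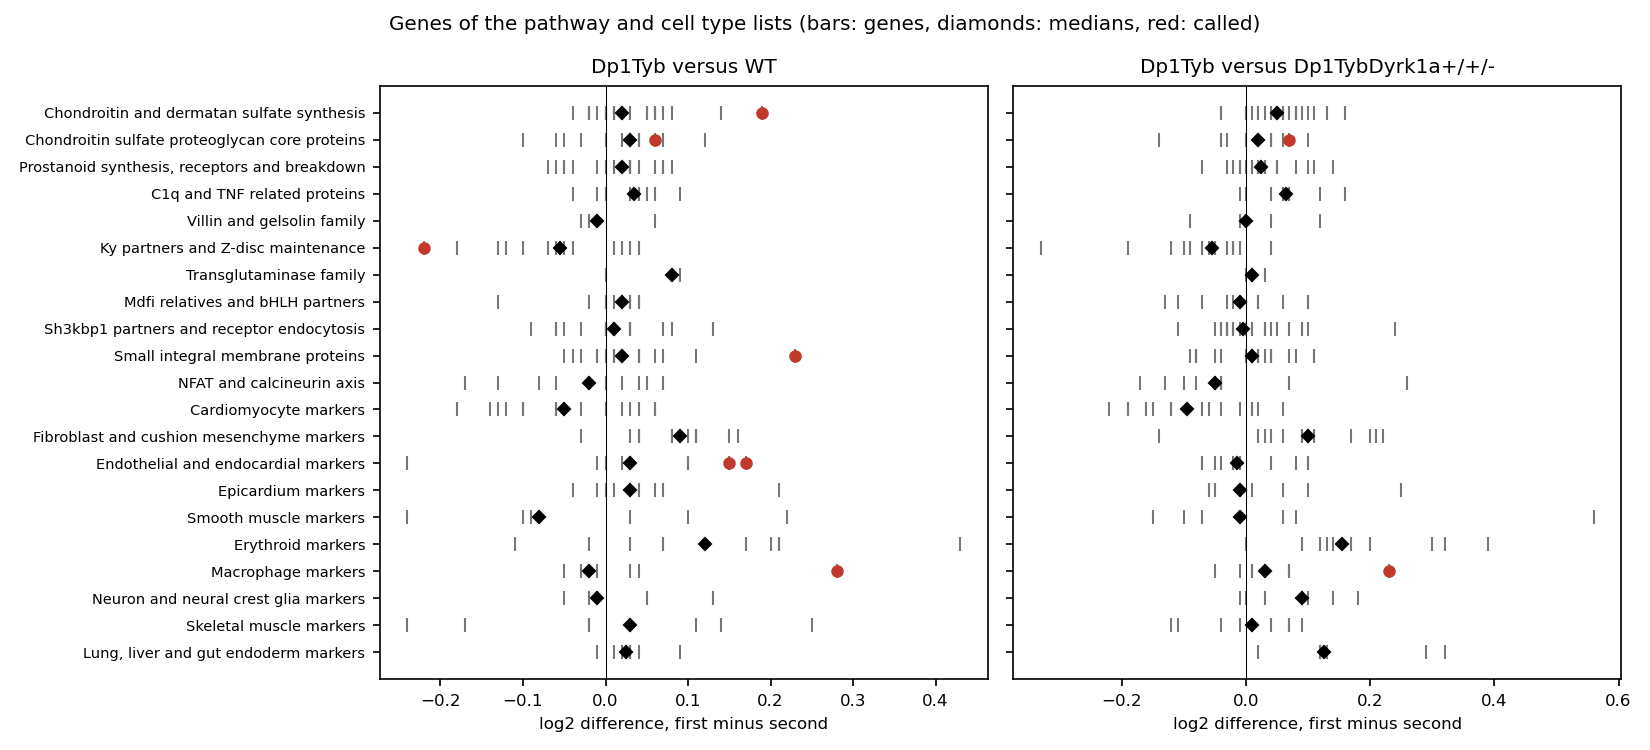
Log2 difference (x axes) of each tested gene of the pathway and marker lists (rows) in Dp1Tyb versus WT (left) and Dp1Tyb versus Dp1TybDyrk1a+/+/- (right), with the list median as a diamond and called genes in red. In each panel most lists have a median within 0.1 of 0, and 7 genes are red on the left against 2 on the right.

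Of 96 tested marker genes of the cell types that a heart sample can hold, 3 were called in Dp1Tyb versus WT, 1 in Dp1TybDyrk1a+/+/- versus WT and 1 in Dp1Tyb versus Dp1TybDyrk1a+/+/-. These shares were 3.12%, 1.04% and 1.04%, where 3.08%, 0.712% and 1.16% of all tested genes were called. All 16 cardiomyocyte markers were tested, and their summed log2 level was 18.98 to 19.31 in WT, 19.01 to 19.16 in Dp1Tyb and 19.08 to 19.23 in Dp1TybDyrk1a+/+/- hearts. Their median log2 difference was -0.049 in Dp1Tyb versus WT and -0.095 in Dp1Tyb versus Dp1TybDyrk1a+/+/-, with 6 and 4 of 16 above 0 and 0 called. At an unadjusted p under 0.05 they gave 25% and 37.5%, beside 15.6% and 18.5% of all tested genes. Of the 13 fibroblast and cushion mesenchyme markers 12 were above 0 in each of these comparisons, with medians of 0.089 and 0.101 and 0 called (30.8% in each at an unadjusted p under 0.05), and their summed level was 16.90 to 17.34 in WT, 17.17 to 17.36 in Dp1Tyb and 16.93 to 17.43 in Dp1TybDyrk1a+/+/- hearts. The cardiomyocyte list thus leaned downward and the fibroblast and cushion mesenchyme list upward in both comparisons. These 2 lists did not stand alone. In the same 2 comparisons the medians were 0.124 and 0.154 for erythroid markers and -0.085 and -0.01 for smooth muscle markers. For lung, liver and gut markers they were 0.024 and 0.123. Values of whole hearts do not show which cell types express the 8 genes. Whether cell composition had a part in the differences of the 8 genes was not tested. In RNA of whole hearts fewer cells of a type and less RNA per cell cannot be told apart.

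Of the other marker lists, Cytl1 rose by 0.15 and Plvap by 0.17 among 10 endothelial and endocardial markers, and Lyz2 by 0.28 among 9 macrophage markers, in Dp1Tyb compared to WT (limma adjusted p = 0.00266, 0.0367 and 0.000486). The calls against WT were kept under 32 of 33 alternatives for Cytl1, 34 of 34 for Lyz2 and 21 of 34 for Plvap, which lost its call without WT replicate 3, 5, 7 or 8 or Dp1Tyb replicate 1, 3, 4 or 5. Plvap also lost it with embryo sex, alone or with lane, or the GC score as a covariate, and with no filter on low values. Lyz2 also rose by 0.23 compared to Dp1TybDyrk1a+/+/- (adjusted p = 0.0327), which held under 21 of 34 and was lost without replicate 2, 3 or 4 of either mutant genotype. This call was also lost with lane, sex or the GC score as a covariate, with only the 2 groups compared and with no filter on low values. Among 9 tested skeletal muscle markers Tnni2 rose by 0.25 in Dp1TybDyrk1a+/+/- compared to WT (adjusted p = 0.021), a call lost without Dp1TybDyrk1a+/+/- replicate 3, 4 or 5 and with the GC score as a covariate, while the muscle determination genes Myod1, Myf5, Pax7 and Pax3, which would mark body wall, were under the filter. No gene of the 9 epicardium, 7 smooth muscle, 10 erythroid, 7 tested neuron and glia or 6 tested lung, liver and gut markers was called in any comparison. The median of the erythroid markers was 0.124 in Dp1Tyb versus WT, and their summed level ran from 16.48 to 18.72 in WT hearts.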

How the data were processed

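RNA of 20 whole E13.5 mouse hearts was sequenced with the KAPA mRNA HyperPrep kit on an Illumina HiSeq. The submitters' processing notes name Trimmomatic 0.36, STAR 2.5.2a, RSEM 1.2.31, DESeq2 and DESeq and the build GRCm38, with no role or order. The authors deposited log2-transformed normalized counts of 48795 genes, normalized over all 20 hearts; the strand setting is not given in the sources used here. Weakly expressed genes are drawn towards their mean, so their log2 differences are understated. Dyrk1a, with 3 copies in Dp1Tyb and 2 in WT, stood at 1.25 times the WT level in Dp1Tyb hearts. Whether differences of more strongly expressed genes are understated too was not tested. The study tested counts with DESeq2, which log2 values do not allow, so limma 3.58.1 in R 4.3.3 was used (a mean for each genotype, trended eBayes, all hearts together, mean normalized count of at least 10, Benjamini-Hochberg adjusted p under 0.05). The fit was tested on simulated data. Depth is unknown. Columns given to no sample numbered 0.

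The genes described and the gene lists were chosen with earlier results of these data known. Genes were named by a rule: the 8 genes, Dyrk1a, up to 4 called genes of each pathway list or its most abundant gene, the 3 genes most like each of the 8, and the next 2 at each edge of the choice, of which 1 is not reported here. Called marker genes and TGACGTCA were added after values or sequences were seen. Gene names and GC content came from GENCODE M39, and positions and promoters from RefSeq on GRCm38.p6. Shared transcript sequence of at least 100 bases at 95% identity was sought with blastn. Correlations used 100000 permutations. Lane comes from the library names and sex from chromosome Y genes. Alternatives were other normalizations, filters, limma settings, weights, lane, sex and GC score as covariates, and hearts left out.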

Additional observations from a re-analysis of the deposited data

Results flagged for a closer look

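In 27 sets of hearts, of 8 genes and Dyrk1a in 3 genotypes, 4 values lay far from the others of their genotype by Dixon's test, and chance gives about 1 in 20 sets. Ptgis in Dp1TybDyrk1a+/+/- replicate 2 had a log2 value of 8.56, where the other 4 hearts ran from 8.84 to 8.93. Mdfi in the same heart had 8.59, where the others ran from 8.81 to 8.87. Sh3kbp1 in WT replicate 6 had 11.21, where the other 9 WT hearts ran from 10.84 to 10.99. Both hearts also stood apart over all tested genes and had the lowest GC scores. Vill in Dp1TybDyrk1a+/+/- replicate 1 had 7.96, where the others ran from 7.82 to 7.86. This heart was also the highest of its group for C1qtnf6, Chpf, Ptgis and Mdfi and the lowest for Ky, had the highest GC score of its group at 0.007, and was its only heart called female and its only heart of lane 3.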

How the results depend on the processing

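The log2 differences of the 8 genes were recomputed under 34 alternatives, of which those with the GC score, with lane and sex together and without the 2 hearts that stood apart were chosen after seeing the data. In the 2 comparisons used in the choice, where the choice itself fixes much of the sign, 1 of 544 values changed sign. This was Sh3kbp1 in Dp1Tyb versus Dp1TybDyrk1a+/+/-, at 0.01 with the GC score as a covariate. That setting also gave 0.14 for C1qtnf6, 0.10 for Chpf, -0.26 for Smim36, 0.03 for Ptgis and 0.02 for Mdfi in this comparison, and 0.03 for Chpf, 0.07 for Ptgis, 0.01 for Mdfi and -0.10 for Sh3kbp1 in Dp1Tyb versus WT. In Dp1TybDyrk1a+/+/- versus WT it gave -0.08 for Chpf, 0.04 for Ptgis, -0.01 for Mdfi and -0.11 for Sh3kbp1. With the GC score and without the 2 hearts, Dp1Tyb versus Dp1TybDyrk1a+/+/- gave 0.12 for C1qtnf6, 0.12 for Chpf, 0.11 for Ptgis and 0.08 for Mdfi, and Dp1Tyb versus WT gave 0.03 for Chpf. Chpf in Dp1TybDyrk1a+/+/- versus WT passed the threshold at -0.14 with weighted hearts and at -0.14 without the 2 hearts, and ran from -0.19 to -0.12 with 1 heart left out.

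The count of called 2-copy genes in Dp1Tyb versus WT, 399, became 152 with sex and 105 with lane and sex as covariates, 1347 with weighted hearts, 704 with only the 2 groups compared, 1103 without the 2 hearts and 158 without them and with the GC score. It ran from 196 to 884 with 1 heart left out, lowest without Dp1Tyb replicate 3 and highest without Dp1TybDyrk1a+/+/- replicate 2, and was also lower without Dp1Tyb replicate 1 (233), 2 (229) or 4 (223). In Dp1TybDyrk1a+/+/- versus WT, 40 became 26 with lane, 25 with lane and sex, 269 with weighted hearts and 142 without the 2 hearts, and 22 (without Dp1TybDyrk1a+/+/- replicate 3) to 89 (without WT replicate 6) with 1 heart left out, with 70 without Dp1TybDyrk1a+/+/- replicate 2. In Dp1Tyb versus Dp1TybDyrk1a+/+/-, 176 became 28 with lane, 9 with sex, 3 with both, 1234 with weighted hearts, 2 with only the 2 groups, 272 with a minimum of 100, 75 with no filter, 8 with the GC score, 598 without the 2 hearts and 0 with both changes (847 at an unadjusted p under 0.05). It ran from 29 (without Dp1Tyb replicate 3) to 400 (without WT replicate 6) with 1 heart left out, with 300 without Dp1TybDyrk1a+/+/- replicate 1 and 35 to 113 without any 1 of WT replicates 1, 3, 5 and 8, the other Dp1Tyb hearts and Dp1TybDyrk1a+/+/- replicates 3 to 5. The cause was not tested.

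The 4 pathway genes called in Dp1Tyb versus WT became 1 with sex, with lane and sex, and with the GC score without the 2 hearts, and 11 with weighted hearts, 7 with only the 2 groups, 10 without the 2 hearts and 2 to 8 with 1 heart left out. The 2 in Dp1TybDyrk1a+/+/- versus WT became 4 with weighted hearts, 1 with the GC score, with or without the 2 hearts, and 1 to 2 with 1 heart left out. The 1 in Dp1Tyb versus Dp1TybDyrk1a+/+/- became 10 with weighted hearts, 3 without the 2 hearts, 0 to 3 with 1 heart left out, and 0 with quantile normalization, median centring, lane, sex, both, only the 2 groups, a minimum of 100, no filter, eBayes without trend, and the GC score with or without the 2 hearts. The 1 correlated pair among WT hearts became 0 by Spearman, without the 2 farthest hearts, without WT replicate 6 and with quantile normalization, and 5 with values centred within lane. No paired analysis was possible because the labels pair no heart with a heart of another genotype. Depth is unknown, so the smallest difference these libraries could show cannot be given.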
